A study of Mus musculus with 4 samples.

Results

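The genes described here are 42 mouse regulators of the cell cycle, namely the cyclins and cyclin-dependent kinases (CDKs), their inhibitors, the E2F and pocket protein families, the CDC25 phosphatases and the MYC family, out of 22367 protein-coding genes in the GENCODE vM1 annotation of mm9. They were chosen by name, as families of the cell cycle, and every SOX3 peak that overlapped the gene body or the 50 kb on either side of it was assigned to the gene. By textbook function 23 of them were treated as drivers of the cycle and 15 as inhibitors, and 4 (Ccnf, Ccng1, Ccng2 and Cdk5) were left unassigned. Genes and classes were chosen with earlier results of these data known. SOX3 binding was measured by ChIP-seq in neural progenitor (NP) cells derived from the mouse embryonic stem cell line R1 by 4 days of monolayer culture in N2B27, a serum-free neural medium. Chromatin from 3 biological replicates was precipitated with an antibody raised against human SOX3 (R&D AF2569), and the peaks of each replicate were called against 1 input library from NP cells, which was not analysed here. All replicates came from 1 parental line and 1 culture condition, and no expression was measured, so the labelled cell type could not be checked against its marker genes.

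SOX3 is a transcription factor of the SOXB1 group that binds DNA through an HMG box and is a characteristic factor of dividing neural progenitors. Progression through the cycle is driven by CDKs in complex with cyclins: D-type cyclins with Cdk4 and Cdk6 phosphorylate the pocket proteins, which releases activator E2Fs and allows the genes of DNA replication to be transcribed. The INK4 and Cip/Kip inhibitors hold CDKs in check, and in the developing nervous system the balance between these drivers and brakes sets when a progenitor stops dividing and differentiates.

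The peak lists held 18816 peaks for replicate 1, 8096 for replicate 2 and 40543 for replicate 3. The score of a peak is 10 times the negative log10 of its MACS p-value against the input, so it grows with sequencing depth, which the lists do not give, and scores were therefore compared through the percentile within a list (the share of its peaks with the same or a lower score). A percentile depends in turn on the length of its list, so that the same rank gives a lower percentile in the short list of replicate 2 than in the long list of replicate 3. Peaks that overlapped by at least 1 bp were merged into 51271 regions, of which 5358 (10.5%) had a peak in all 3 replicates. The lists were not alike in their details: in replicates 2 and 3, 34.5% of overlapping peaks shared their first base, compared with 0.922% for replicates 1 and 2 and 1.63% for replicates 1 and 3. Replicate 3 covered 96.3% of the list of replicate 2, whereas replicate 2 covered 29.5% and replicate 3 covered 43.1% of the list of replicate 1. Whether replicates 2 and 3 were processed together or share reads was not tested, and if they do, a region of all 3 replicates holds fewer than 3 independent observations. Near the cell cycle genes, the best peaks of replicates 2 and 3 shared their first base at 7 of the 23 regions of all 3 replicates. In the other pairs the first base was shared at 0 of 23.

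Of the 42 genes, 39 had at least 1 region in the window, beside 90.6% of all protein-coding genes, and the exceptions were Ccna1, Ccnb1 and E2f5, which had no peak in any replicate. A region with a peak in all 3 replicates was present for 19 genes (45.2%), whereas 28.8% of all protein-coding genes had one. Their windows together held 160 regions, and 120 of these came from 1 replicate alone, 17 from a pair of replicates and 23 from all 3. The share held by all 3 replicates was thus 14.4%, next to 10.5% over the genome. Per length of window, the cell cycle genes had 4.48 regions of all 3 replicates per Mb and the windows of all protein-coding genes had 2.49 per Mb. For regions of any replicate the densities were 31.2 and 22.6 per Mb. The median gene length was 11017.5 bp in this set and 15427 bp over all genes. Among genes shorter than 20 kb, 13 of 29 regulators had such a region, and so did 25.5% of all genes of this size. From 20 to 100 kb it was 4 of 11 and 29.3%, and over 100 kb it was 2 of 2 and 44.7%. These are counts over chosen genes, and no test was run on them.

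**Figure D1:**
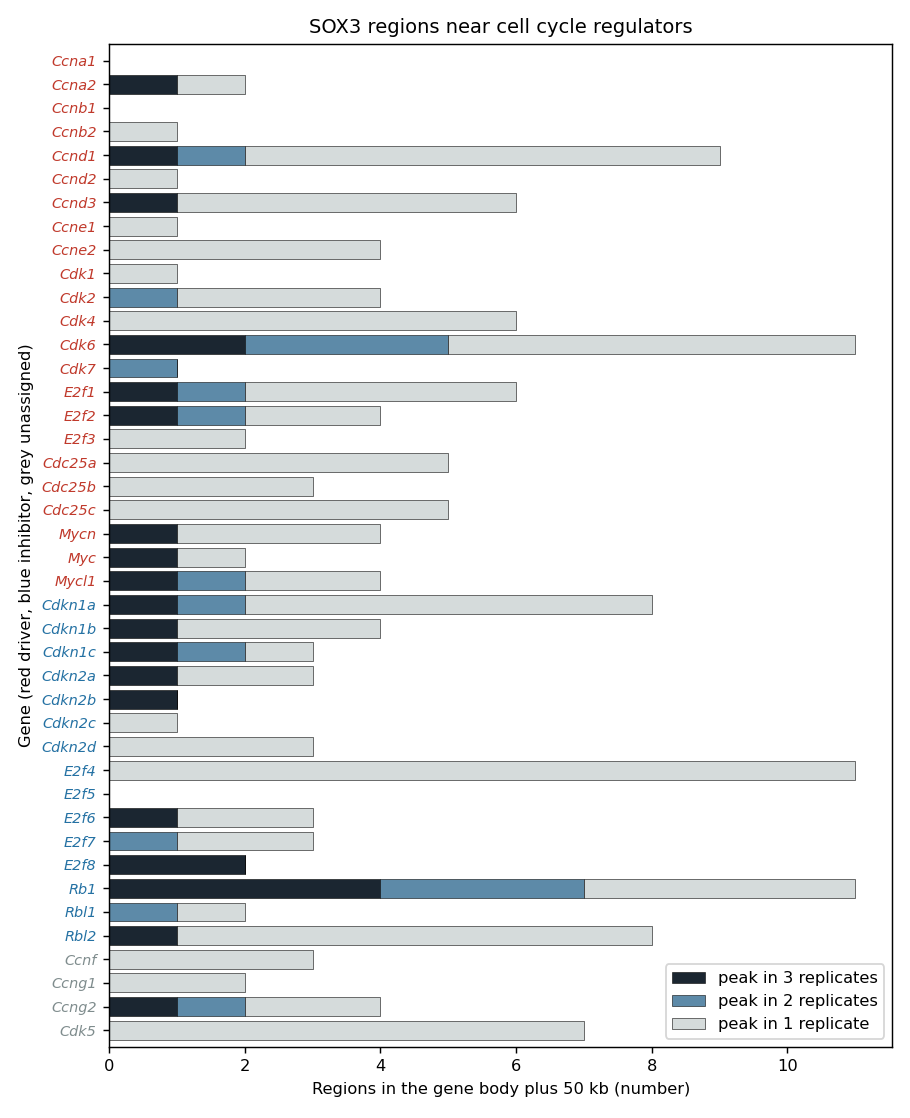
Number of SOX3 regions in the gene body plus 50 kb of each of the 42 cell cycle regulators, with gene names in red for drivers, blue for inhibitors and grey for unassigned genes, and bars divided by the number of replicates with a peak in the region. Rb1 had the most regions of all 3 replicates, 4 of 11, whereas E2f4 had 11 regions that each came from 1 replicate.

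Regions of all 3 replicates were present near both classes. Such a region was found for 9 of 15 inhibitors (60%) and 9 of 23 drivers (39.1%), both beside the 28.8% of all genes. Without the MYC family and the E2Fs it was found for 4 of 17 drivers (23.5%), which is below that share, and without the pocket proteins and the E2Fs for 5 of 7 inhibitors (71.4%). The density was 6.57 per Mb for inhibitors and 3.50 per Mb for drivers. Of the 12 inhibitor regions, 4 lay in the window of Rb1, and the calls for Cdkn2a and Cdkn2b rested on 1 region that they share. The lowest percentile over the lists had a median of 60 for the inhibitors, 56.1 for the drivers and 61.8 for all regions of this kind in the genome. With windows of 10 kb the order of the shares turned, to 20% of inhibitors and 21.7% of drivers, beside 14.1% of all genes. With peaks of p 1e-10 or less the order was kept, at 26.7% and 21.7%, beside 15.2% of all genes. Genes are not replicates, and the difference between the classes was not tested.

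**Figure D2:**
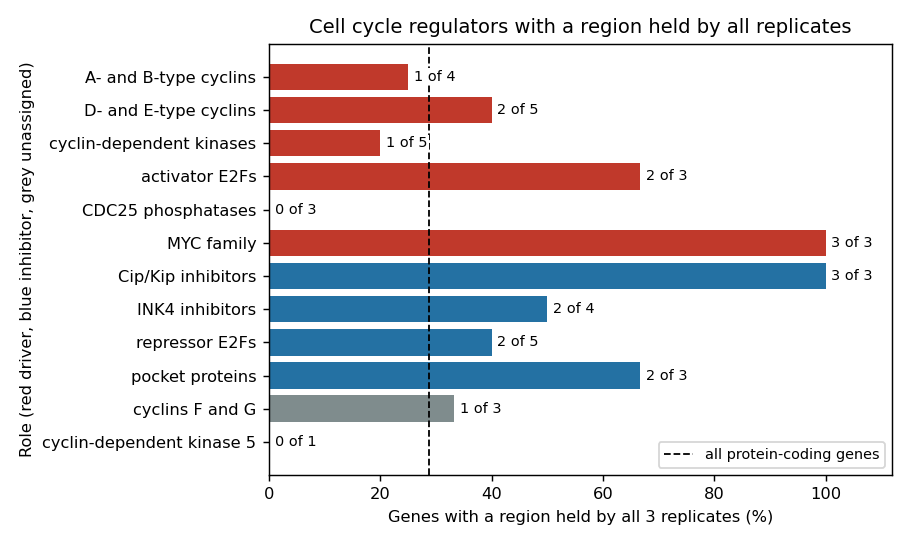
Share of the genes of each role that had a region of all 3 replicates in the gene body plus 50 kb, in percent, with the counts at the bars and the share of all protein-coding genes (28.8%) as a dashed line. The MYC family and the Cip/Kip inhibitors had such a region at each of their 3 genes, and the CDC25 phosphatases at 0 of 3.

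Among the drivers, each gene of the MYC family had a region of all 3 replicates, and that of Mycn had the highest score of the driver regions of this kind in each list. Mycn, Myc and Mycl1 encode transcription factors that promote growth and entry into the cycle, and Mycn is the member best known for keeping neural progenitors dividing. The Mycn region (chr12:12933856-12934407) was intergenic and lay 13290.5 bp downstream of the nearest Mycn start. Its score was 608.8 in replicate 1, 400.7 in replicate 2 and 681.5 in replicate 3, or percentiles 97.6, 95.4 and 98.9. No other region of all 3 replicates near the 42 genes had a lowest percentile as high. The Myc region (chr15:61810388-61810991) lay 6256.5 bp upstream of the gene, with scores of 360.0, 159.4 and 313.1 and percentiles 93.7, 80.1 and 96.5. The Mycl1 region (chr4:122675814-122677015) was 1202 bp wide and lay 167.5 bp upstream of the start of a Mycl1 transcript, but 3519.5 bp inside the gene from its 5′ end. It scored 554.9, 137.2 and 508.8, or percentiles 97, 75.3 and 98.3. In replicate 2, the shortest list, the percentile was the lowest at each of the MYC family genes. By rank in replicates 1, 2 and 3, the Mycn region stood at 452, 374 and 463, that of Myc at 1180, 1616 and 1409 and that of Mycl1 at 567, 1997 and 710, so that Myc and Mycl1 were last in replicate 2 and Mycn was first. The Mycl1 call was lost when peaks had to overlap by 50% of each other's length.

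The sequences at these regions are shown first, and like those further on they were taken with promoter regions ahead of distal ones and then by the lowest percentile. Each is the plus strand of mm9 around the middle of the stretch shared by the replicates, at chr12:12934002-12934301 for Mycn, chr15:61810508-61810807 for Myc and chr4:122676502-122676801 for Mycl1. Capitals mark the words AACAAA or AACAAT, together with the variants GACAAA or GACAAT in which the first base differs, on either strand. They contain the core that SOX proteins bind.
Mycn: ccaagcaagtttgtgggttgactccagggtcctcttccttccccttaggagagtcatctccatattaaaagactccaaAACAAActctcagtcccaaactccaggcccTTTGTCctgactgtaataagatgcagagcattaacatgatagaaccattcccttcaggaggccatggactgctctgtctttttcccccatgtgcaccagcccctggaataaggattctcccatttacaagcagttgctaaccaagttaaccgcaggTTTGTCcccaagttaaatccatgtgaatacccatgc
Myc: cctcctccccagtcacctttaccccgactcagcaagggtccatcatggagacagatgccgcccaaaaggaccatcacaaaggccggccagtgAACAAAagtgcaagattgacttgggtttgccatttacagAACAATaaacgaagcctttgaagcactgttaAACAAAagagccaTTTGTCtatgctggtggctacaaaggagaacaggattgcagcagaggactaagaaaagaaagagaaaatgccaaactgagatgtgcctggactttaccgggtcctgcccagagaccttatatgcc
Mycl1: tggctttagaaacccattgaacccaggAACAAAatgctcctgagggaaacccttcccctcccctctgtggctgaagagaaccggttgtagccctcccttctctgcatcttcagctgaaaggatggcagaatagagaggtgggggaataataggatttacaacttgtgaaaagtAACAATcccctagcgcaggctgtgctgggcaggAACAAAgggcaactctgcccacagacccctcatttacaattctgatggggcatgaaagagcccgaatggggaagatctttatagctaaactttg
The stretches held 3 such words at Mycn, 4 at Myc and 3 at Mycl1. The whole Mycl1 region held 9. The words are a match of letters and do not mark a measured binding site.

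**Figure D3:**
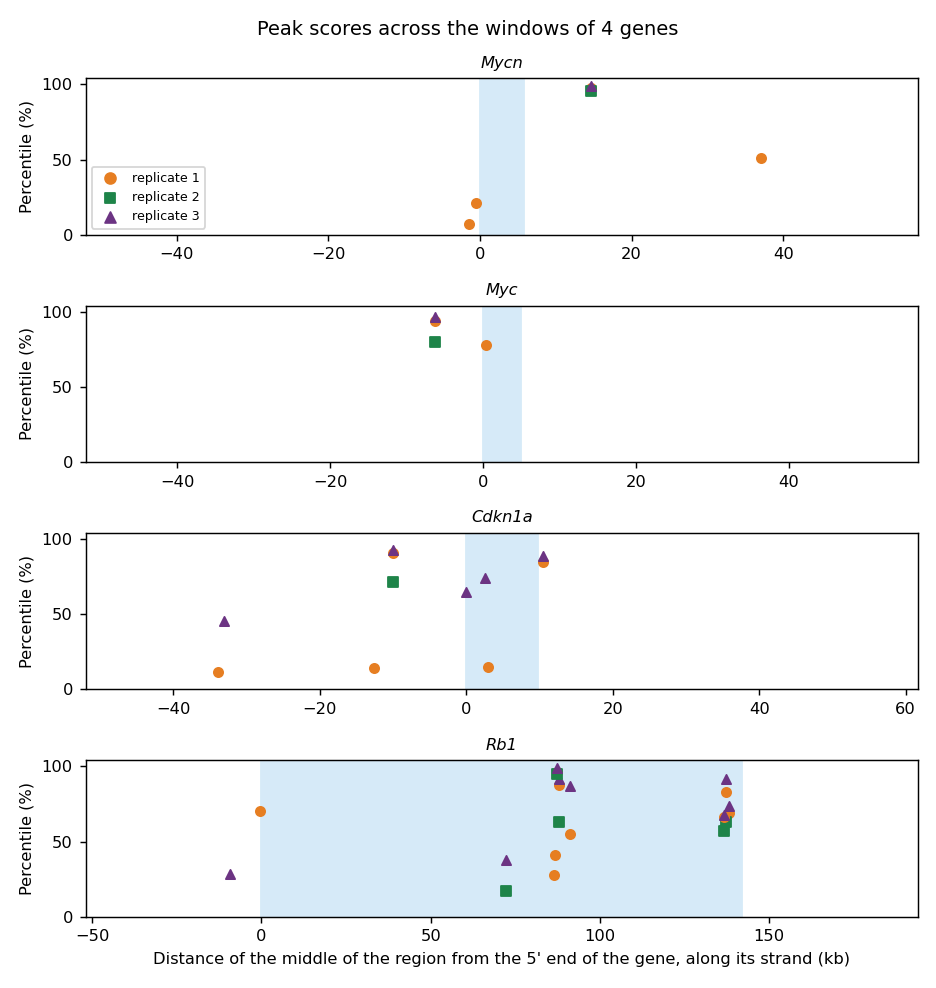
Percentile of each peak score within its list (y axis, in percent) against the distance of the region from the 5′ end of the gene along its strand (x axis, in kb), for Mycn, Myc, Cdkn1a and Rb1, with the gene body shaded and replicates 1, 2 and 3 shown as circles, squares and triangles. At Mycn and Myc the peaks of all 3 replicates stacked at 1 place away from the promoter, and peaks at the promoter came from replicate 1.

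Of the cyclins, 1 of 4 A- and B-type and 2 of 5 D- and E-type genes had a region of all 3 replicates (25% and 40%, on either side of the 28.8% of all genes). Ccna2, the A-type cyclin of S phase and G2, had its region (chr3:36421092-36421404) at 44519 bp downstream of its nearest start, where the closest start of any gene, 30280 bp away, was that of Exosc9. Its scores of 200.7, 254.8 and 413.9 corresponded to percentiles 85.0, 90.2 and 97.6, so it was high in each list. The mitotic cyclin Ccnb2 had 1 region, from replicate 3 alone, at its promoter, and Ccna1 and Ccnb1 had none. Of the D-type cyclins, which link growth signals to CDK activity, Ccnd1 had 9 regions, 7 of them from 1 replicate. Its single region of all 3 replicates (chr7:152074553-152074818) lay 49416.5 bp downstream of the nearest Ccnd1 start and 7751.5 bp from the start of Fgf15, a growth factor gene. It scored 57.86, 167.1 and 266.6, or percentiles 25.4, 81.2 and 95.7, and was low in replicate 1. The Ccnd1 call was lost with peaks of p 1e-10 or less, equal numbers of peaks, windows of 10 kb and the nearest gene. Ccnd3 had a region of all 3 replicates inside its own intron (chr17:47708604-47708913), 21657.5 bp from the nearest Ccnd3 start, with scores of 132.5, 108.5 and 133.1 (percentiles 73.8, 65.3 and 88.4). Ccnd2 and Ccne1 each had 1 region, from replicate 3, and Ccne2, which with Ccne1 activates Cdk2 at the onset of S phase, had 4 regions of 1 replicate each.

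The cyclin regions that scored well in every list are shown next, as the plus strand of mm9 at chr3:36421110-36421363 for Ccna2 and chr17:47708645-47708903 for Ccnd3, with the same words in capitals.
Ccna2: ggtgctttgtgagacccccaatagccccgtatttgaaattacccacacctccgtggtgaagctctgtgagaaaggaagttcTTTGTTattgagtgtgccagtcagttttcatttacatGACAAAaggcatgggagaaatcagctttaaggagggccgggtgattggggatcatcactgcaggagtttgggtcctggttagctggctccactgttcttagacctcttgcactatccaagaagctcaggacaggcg
Ccnd3: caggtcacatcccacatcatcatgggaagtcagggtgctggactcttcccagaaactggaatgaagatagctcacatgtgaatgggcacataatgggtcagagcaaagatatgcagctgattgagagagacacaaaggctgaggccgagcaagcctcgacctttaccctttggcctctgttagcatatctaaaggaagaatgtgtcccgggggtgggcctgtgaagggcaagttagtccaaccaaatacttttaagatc
The Ccna2 stretch held 2 of the words, and the Ccnd3 stretch held 0 of them over the stretch and over the whole region.

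Of the cell cycle kinases, Cdk6 alone had regions of all 3 replicates, and it lost them with peaks of p 1e-10 or less. This partner of the D-type cyclins is also the longest of the 42 genes, at 179326 bp, and its window held 11 regions. One region of all 3 replicates (chr5:3320283-3320656) lay 23423.5 bp upstream of the gene and scored 108.5, 78.15 and 120.9 (percentiles 66.2, 46.8 and 86.4). The other (chr5:3435753-3437288) was 1536 bp wide, lay in a Cdk6 intron and scored 123.8, 68.86 and 165.5 (percentiles 71.4, 38.0 and 91.5), but 85.1% of the 50-base sequences in it occur at more than 1 place in the genome. The part of this repetition in the call was not tested. Cdk7, a subunit of the kinase that activates other CDKs, had 1 region, shared by replicates 1 and 2 at percentiles 95.8 and 66.1, which lay 68030 bp from its start in an intron of another gene and was multi-copy over 75.5% of its 50-base sequences. Cdk2, which acts with E- and A-type cyclins, had 4 regions, the mitotic kinase Cdk1 had 1, from replicate 3, and Cdk4 had 6 regions of 1 replicate each. The CDC25 phosphatases, which remove inhibitory phosphates from CDKs, were without a peak of replicate 2: Cdc25a, Cdc25b and Cdc25c had 5, 3 and 5 regions, each from replicate 1 or replicate 3 alone.

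Of the activator E2Fs, which transcribe the genes of S phase, E2f1 and E2f2 had 1 region of all 3 replicates each and E2f3 had none. Both calls were lost with peaks of p 1e-10 or less and with windows of 10 kb, that of E2f1 also with equal numbers of peaks and with the nearest gene, and that of E2f2 with the reciprocal overlap. The E2f2 region (chr4:135715677-135716240) was intergenic, 12350.5 bp upstream of the gene, and its scores were 284.8, 78.32 and 134.2, at percentiles 91.1, 46.9 and 88.5. The region assigned to E2f1 (chr2:154358603-154358923) lay 36390 bp from the nearest E2f1 start and 1988 bp from a start of Cbfa2t2, a transcriptional corepressor gene. It scored 52.34, 77.41 and 131.0, or percentiles 6.87, 46.1 and 88.1, and in replicate 1 it was just above the threshold of 50. E2f3 had 2 regions, 1 from replicate 1 and 1 from replicate 3.

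Among the inhibitors, each of the 3 Cip/Kip genes had a region of all 3 replicates, and none of these regions was at its own promoter. Cdkn1a kept its call in each alternative setting, whereas Cdkn1b and Cdkn1c lost it with peaks of p 1e-10 or less and with windows of 10 kb, and Cdkn1b also with equal numbers of peaks and with the nearest gene. Their products bind cyclin-CDK complexes, and Cdkn1c is an imprinted gene linked to cell cycle exit in the developing brain. The Cdkn1a region (chr17:29217735-29218205) lay 9954 bp upstream of the gene with scores of 275.3, 124.0 and 191.0, at percentiles 90.6, 71.6 and 92.9. The Cdkn1c region (chr7:150623751-150624090) lay 23034.5 bp downstream of the Cdkn1c start and scored 276.7, 56.92 and 110.9, at percentiles 90.7, 19.9 and 84.3. By rank it was 1752 in replicate 1, 6487 in replicate 2 and 6353 in replicate 3, so the last 2 were close by rank and apart by percentile, in lists of different length. The Cdkn1b region (chr6:134837840-134838183) lay 32407.5 bp upstream, at 134.5 bp from a start of Gpr19, which encodes an orphan G protein-coupled receptor. Its scores were 127.9, 50.39 and 77.06, and the percentile of 1.73 in replicate 2 was the lowest of any of the 23 regions. Cdkn1a had the most regions of the 3 genes, with 8 in its window.

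The INK4 inhibitors bind Cdk4 and Cdk6. Cdkn2a and its neighbour Cdkn2b shared 1 region of all 3 replicates (chr4:88930853-88931522), in an intron of Cdkn2a and 3091.5 bp from the nearest Cdkn2a start. It scored 68.82, 80.15 and 196.8, or percentiles 42.6, 48.4 and 93.2, and 66.7% of its 50-base sequences occur at more than 1 place in the genome, the part of which in the call was not tested. Without regions of this kind both genes lost their call, the inhibitors fell from 9 to 7 of 15 (46.7%) and the drivers stayed at 9. The share of all protein-coding genes fell from 28.8% to 25.4%. Cdkn2c had 1 region and Cdkn2d had 3, all from replicate 1 alone, and those of Cdkn2d were wholly (100%) multi-copy.

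The repressor E2Fs counter the activators at shared target genes. E2f6 had 1 region of all 3 replicates (chr12:16796601-16797072), in an intron of its neighbour Greb1 and 20934.5 bp upstream of E2f6, with scores of 285.9, 206.9 and 292.1 and percentiles 91.1, 86.4 and 96.2. It ranked high in each list, as the regions of Mycn and Rb1 did. E2f8 had 2, of which the better (chr7:56173280-56173728) lay 36538 bp upstream and scored 266.0, 105.2 and 188.8 (percentiles 90.1, 63.5 and 92.8). E2f7 had 3 regions, 1 of them, wholly (100%) multi-copy, shared by replicates 2 and 3. E2f4 had 11 regions, none of which was shared by any pair of replicates, and E2f5 had none.

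The regions of Cdkn1a and E2f6 are shown as the best scored distal regions of an inhibitor, at chr17:29217838-29218116 and chr12:16796688-16796987 on the plus strand of mm9, with the same words in capitals.
Cdkn1a: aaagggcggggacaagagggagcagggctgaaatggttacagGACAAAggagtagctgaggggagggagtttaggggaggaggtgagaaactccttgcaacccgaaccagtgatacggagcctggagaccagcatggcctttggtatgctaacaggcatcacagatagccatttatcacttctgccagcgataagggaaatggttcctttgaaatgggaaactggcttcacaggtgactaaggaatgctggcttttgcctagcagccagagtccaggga
E2f6: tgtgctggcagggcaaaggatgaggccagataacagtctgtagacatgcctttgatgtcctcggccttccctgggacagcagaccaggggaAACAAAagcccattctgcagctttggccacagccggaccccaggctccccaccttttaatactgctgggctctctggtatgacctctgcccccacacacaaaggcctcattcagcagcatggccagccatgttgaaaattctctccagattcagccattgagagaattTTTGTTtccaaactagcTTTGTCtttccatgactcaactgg
The Cdkn1a stretch held 1 word and the E2f6 stretch held 3.

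The pocket proteins bind and silence E2Fs. Rb1, the retinoblastoma gene, had 4 regions of all 3 replicates among 11 regions, the most of any of the 42 genes, in a gene body of 142150 bp. The strongest (chr14:73638164-73638602) scored 473.5, 372.7 and 642.0, at percentiles 96.1, 94.7 and 98.8 and at ranks 732, 429 and 494 of the lists. A second one (chr14:73637587-73638021) scored 229.1, 103.7 and 164.4. Both lay 1210 to 1789 bp from the start of an internal Rb1 transcript but over 87 kb from the 5′ end of the gene (87246 and 87825 bp). The nearest start, at 685 and 106 bp, was that of Lpar6. This receptor gene for lysophosphatidic acid lies within Rb1 on the opposite strand, and the peaks do not tell to which gene a region belongs. The remaining Rb1 regions (chr14:73588376-73588607 and chr14:73588725-73588907) lay where Rb1 overlaps Rcbtb2 and consisted wholly (100%) of multi-copy sequence. At the 5′ end of Rb1 there was a region of replicate 1 alone, at percentile 70.4. Rbl2 had 8 regions, and that of all 3 replicates (chr8:93657869-93658365) lay 191 bp from a start of Aktip and 19089 bp from the nearest Rbl2 start, with scores of 264.1, 52 and 104.4 and percentiles 90, 6.74 and 82.5. The Rbl2 call was lost with peaks of p 1e-10 or less, the reciprocal overlap, windows of 10 kb and the nearest gene. Rbl1 had 2 regions, 1 of them shared by replicates 2 and 3.

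**Figure D4:**
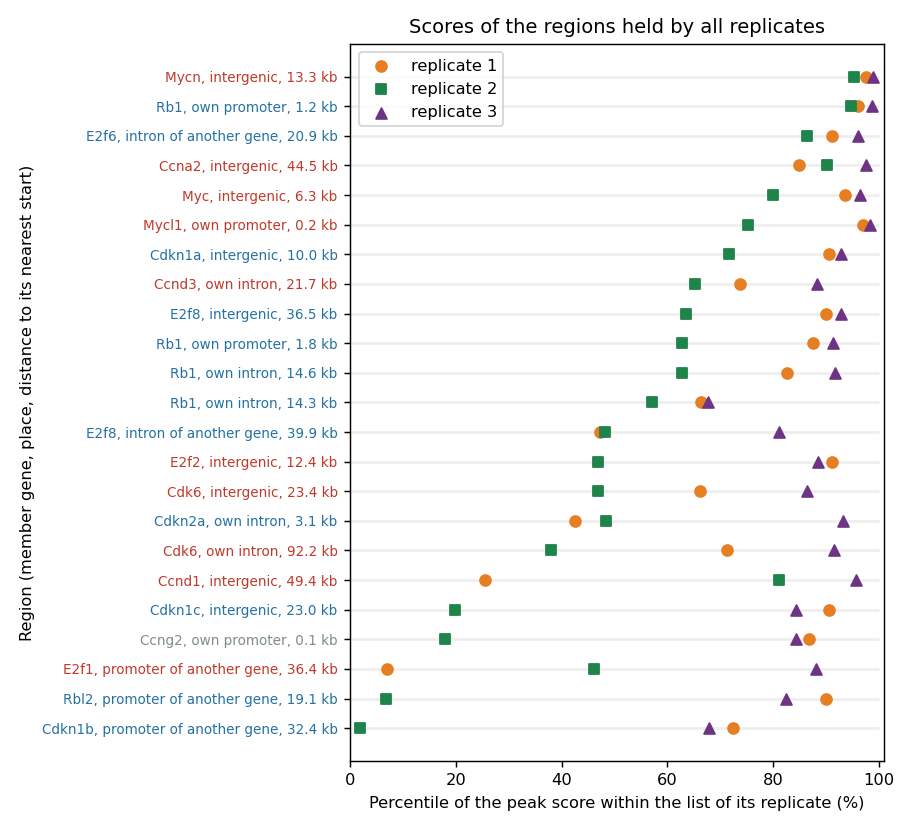
Percentile of the peak score within the list of each replicate (x axis, in percent) for the 23 regions of all 3 replicates, ordered by the lowest of the 3 values, with replicate 1 as circles, replicate 2 as squares and replicate 3 as triangles. The strongest regions of Mycn and Rb1 lay above 90 in each list, and the lowest value of the plot was that of Cdkn1b in replicate 2, at 1.73.

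The scores of the 23 regions were spread over each list. In replicate 1 the lowest score was 52.34, the median 220.0 and the highest 608.8. The same values were 50.39, 103.7 and 400.7 in replicate 2, and 76.79, 165.5 and 681.5 in replicate 3. Their median percentile was 86.8 in replicate 1, 62.8 in replicate 2 and 91.5 in replicate 3, with the lowest of these medians in the shortest list. In the upper 50% of every list were 12 of the 23, while 62.9% of all regions of 3 replicates in the genome were. In the upper 10% of every list were 2, those of Mycn and Rb1, beside 14.2% in the genome. The median of the lowest percentile was 57.1 near the cell cycle genes and 61.8 over the genome. Of the 2 regions in the upper 10% of every list, 1 stood at a driver and 1 at an inhibitor.

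Ccng2, an unassigned and atypical cyclin associated with cell cycle arrest, was the gene with a region of all 3 replicates within 2000 bp of its 5′ end. The region (chr5:93697087-93697417) lay 88 bp upstream of the start of a Ccng2 transcript and 969 bp from the 5′ end of the gene. It scored 220.0, 56.05 and 110.8, at percentiles 86.8, 17.9 and 84.3. By rank it was 2481, 6645 and 6363, so that replicates 2 and 3 were close. The call was lost with peaks of p 1e-10 or less. Its sequence is shown as that of the promoter, at chr5:93697094-93697281 on the plus strand of mm9, where TTTGTT in capitals is AACAAA on the minus strand.
Ccng2: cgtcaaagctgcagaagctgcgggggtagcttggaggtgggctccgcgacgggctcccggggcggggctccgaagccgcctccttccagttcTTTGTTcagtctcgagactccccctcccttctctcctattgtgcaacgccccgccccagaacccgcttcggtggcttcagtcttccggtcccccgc
G and C made up 66.5% of this stretch. The related Ccng1 had 2 regions of 1 replicate each, Ccnf, an F-box protein, had 3, and Cdk5, which acts mainly in neurons after they leave the cycle, had 7.

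Promoter regions were common when any replicate was counted and rare when all 3 were required. A region counted as promoter if the start of any transcript of the gene was no more than 2000 bp from its middle. In at least 1 replicate 20 of the 42 genes (11 drivers, 6 inhibitors and 3 unassigned) had such a region, beside 29.8% of all protein-coding genes. In all 3 replicates only Ccng2, Rb1 and Mycl1 did (7.14%), beside 4.79% of all genes. With the start taken as the 5′ end of the gene, Ccng2 alone remained (2.38%, against 4.02% of all genes). Of the 23 regions of all 3 replicates, 4 were at a promoter of the assigned gene, 5 in its introns and 9 intergenic. Another 3 were at the promoter of another gene and 2 in an intron of another gene. The promoter regions of Rb1, counted among the 4, lay nearer to the start of Lpar6 (106 and 685 bp) than to one of Rb1 (1789 and 1210 bp). Most of the 23 were distal: 16 lay over 10 kb from the start of the assigned gene and 3 between 2 and 10 kb. A window of the gene body plus 50 kb on either side is mostly distal by its length. Over the genome 1028 of the 5358 regions of all 3 replicates were at a promoter of a protein-coding gene. That count takes the promoter of any gene, as the 4 and the 3 together do here. The assigned gene had the nearest start of any protein-coding gene for 12 of the 23.

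Most promoter peaks came from replicate 1. Of the 32 promoter regions, 21 (65.6%) had a peak in replicate 1 alone, as had 40.2% of the 7948 promoter regions of all protein-coding genes. Replicate 3 alone accounted for 6 (18.8%, against 34.2%), replicates 1 and 3 for 1 and all 3 replicates for 4 (12.5%, against 12.9%). By class, 9 of 15 promoter regions in drivers (60%) and 10 of 14 in inhibitors (71.4%) were held by replicate 1 alone. Without replicate 1, the number of genes with a promoter region fell from 20 to 7 (16.7%), and the share of all genes was then 19.3%. With replicate 1 counted by itself, the numbers were 17 genes (40.5%) and 20.4% of all genes.

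Rb1 had 3 regions of replicate 1 alone and Cdk4, Cdkn2d (multi-copy at both), Rbl2 and Mycn had 2 each, and single ones were found at Ccnd1, Cdkn1a, Cdkn1b, Cdkn2c, E2f1, E2f3, Cdk5, Ccng1 and Cdc25c. The highest was at Myc, 140.5 bp from a start, with a score of 151.3 in replicate 1 (percentile 77.9) and no peak in the other replicates. The next was at Ccng1, with a score of 139.6 (percentile 75.6). Over the 21 regions the percentile in replicate 1 ranged from 6.87 to 77.9 with a median of 35.0, and over the 3193 regions of this kind in the genome the median was 38.1. Their median thus lay in the lower part of the list. From replicate 3 alone came the promoter regions of Ccnb2, Ccnd3 and Cdc25a, 2 at Cdkn1a and 1 at Mycl1. Whether the difference between replicates came from the cultures, the libraries or the calling was not tested.

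**Figure D5:**
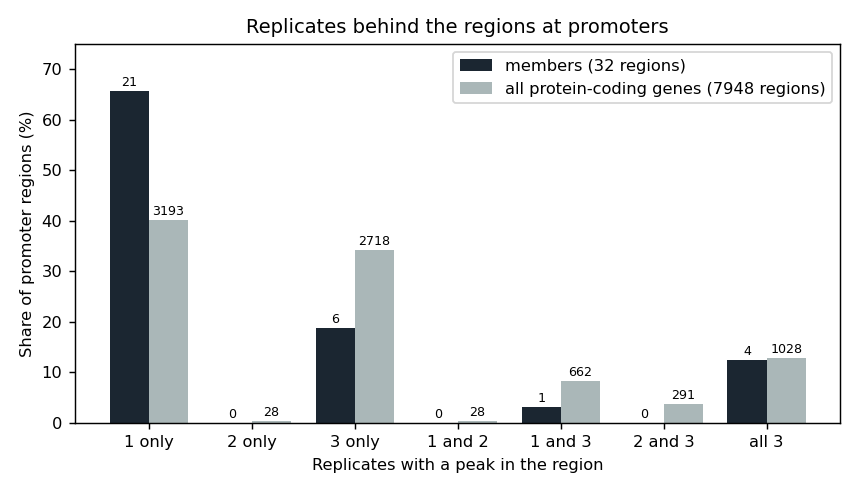
Share of promoter regions (y axis, in percent) by the replicates that had a peak in them (x axis), for the 32 regions at promoters of the cell cycle regulators and the 7948 at promoters of all protein-coding genes, with the number of regions above each bar. Replicate 1 alone held 65.6% of the former and 40.2% of the latter.

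The 6-base words AACAAA or AACAAT and GACAAA or GACAAT, which hold the SOX core, were searched on both strands, along with the POU octamer words ATGCAAAT and ATGCTAAT. No word of 1 kind contains a word of another, though neighbouring words may share bases. Over their whole length 16 of the 23 regions held at least 1 SOX word and 7 held no word. An octamer word was held by 2, those of E2f1 and Cdkn1c. The 7 without a word included the 4 mostly multi-copy regions. Of all regions of 3 replicates in the genome, 14.7% were mostly multi-copy. In windows of 200 bp around the middle, AACAAA or AACAAT was present in 11 of 23 (47.8%), against 49.2% of all 5358 regions of 3 replicates and 30.4% of windows of equal width 2000 bp to either side of the 23. GACAAA or GACAAT was present in 8 (34.8%), with 34.2% over all regions and 28.3% of the flanks. An octamer word was present in 3 (13.0%), with 8.87% over all regions and 2.17% of the flanks. The third of these windows was that of the narrow Rb1 region at chr14:73588725-73588907 and reached past its edge.

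A further 43 genes of the cell cycle machinery were counted in the same way. Of these, 13 (30.2%) had a region of all 3 replicates, beside the 28.8% of all genes, and 4 (9.3%) had one at a promoter, beside the 4.79% of all genes. The 5 with the highest lowest percentile were the mitotic kinase gene Aurkb (97.9), the replicative helicase subunit genes Mcm3 and Mcm6 (92.8 each), the anaphase-promoting complex activator Fzr1 (78.1) and the chromatin-associated Rbbp4 (74.1). For Fzr1, Mcm3 and Rbbp4 a region of all 3 replicates had the named gene as its nearest start, but for Aurkb and Mcm6 none did.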

How the data were processed

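SOX3 ChIP-seq of 3 replicates of NP cells was used as deposited. Reads were aligned by the authors to mm9 with Bowtie (version 1.0.0 in the submitters' processing notes), and peaks were called in each replicate separately with MACS at a p-value of 1e-05 against the input. The unit of the deposited lists is the MACS score, computed by the authors as 10 times the negative log10 of the p-value, without normalization between replicates. Depth is unknown and no reads were used, so peaks were not called again.

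Peaks overlapping by 1 bp or more were merged, and genes and transcript starts were taken from GENCODE vM1 on NCBIM37, the assembly of mm9. Every gene was accounted for, those with a region of all 3 replicates by its position, scores and percentiles (its best where there were several) and the others by counts. Sequences were shown for up to 8 regions, promoter regions first and then by lowest percentile, without those that overlap a UTR. A region was mostly multi-copy when over 50% of its 50-base sequences occur more than once in the reference. The genes, their classes and the further list were chosen with earlier results of these data known, so counts are descriptions and no p-value was computed. Alternatives were a p-value of 1e-10, equal numbers of peaks, a reciprocal overlap of 50%, windows of 10 and 100 kb, promoters of 1000 and 5000 bp, the nearest gene, regions without multi-copy sequence, smaller classes and each replicate left out. The merging of peaks and the counting of 50-base sequences were tested on simulated data. Python 3.11.15, numpy 2.4.6, numba 0.67.0 and matplotlib 3.10.9 were used.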

Additional observations from a re-analysis of the deposited data

How the results depend on the processing

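The count of 19 genes with a region of all 3 replicates (9 drivers, 9 inhibitors, 23 regions) depended most on the peak threshold and the window. With peaks of p 1e-10 or less it was 9 genes, 5 drivers, 4 inhibitors and 11 regions (15.2% of all genes), and with windows of 10 kb it was 9 genes, 5 drivers, 3 inhibitors and 12 regions (14.1% of all genes). Without the MYC family and the E2Fs 4 of 17 drivers were counted (23.5%, beside 28.8% of all genes), and without the pocket proteins and the E2Fs 5 of 7 inhibitors (71.4%). Of these 5, Cdkn2a and Cdkn2b share 1 mostly multi-copy region. At the 5′ end of the gene, a setting added after the data were seen, 1 promoter gene was counted in place of 3 (Ccng2). It was 2 with promoters of 1000 bp (without Rb1; 4% of all genes), 4 with 5000 bp (with Cdkn2a; 6.64%), 2 with peaks of p 1e-10 or less (without Ccng2; 1.99%) and 2 with the reciprocal overlap (without Mycl1; 4.17%). Other calls lost were those of Ccna2 and E2f6 with windows of 10 kb and the nearest gene, E2f8 with 10 kb, Cdkn2a with p 1e-10 and equal numbers, and Cdkn2b with these, 10 kb and the nearest gene. Without 1 replicate in turn, requiring both others, the counts were 20 to 21 genes, 9 to 10 drivers, 9 to 11 inhibitors and 26 to 31 regions, with 3 promoter genes throughout (4.89% to 7.77% of all genes). The genes added were E2f7 and Rbl1 without replicate 1 (21 genes, 50%, beside 37.3% of all genes), Cdk2 without replicate 2 (47.6%, beside 39.4%) and Cdk7 without replicate 3 (47.6%, beside 29.4%), and no gene could be lost, since fewer replicates were required. Windows of 100 kb added Ccna1, Cdk5, Cdkn2c and E2f5 (23 genes, beside 42.2% of all genes). Equal numbers of peaks gave 14 genes (beside 21.9% of all genes), a reciprocal overlap of 50% gave 16 (26.8%), the nearest gene gave 13 (16.5%) and regions without multi-copy sequence gave 17 (25.4%). The share of inhibitors, against that of drivers, was 40% against 30.4% with equal numbers of peaks and 53.3% against 30.4% with the reciprocal overlap. It was 46.7% against 39.1% without multi-copy sequence and 73.3% against 43.5% with windows of 100 kb. The nearest gene gave 5 of 15 inhibitors and 7 of 23 drivers. These drivers included Ccna1, which had no peak in its window of 50 kb. No read depth was available, so the absence of a peak in a list does not show absence of binding.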
